A study of Mus musculus with 21 samples.

Results

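The genes Spi1, Cebpa, Cebpb, Cebpe, Gfi1, Irf8, Klf4, Runx1, Gata2 and Myc, which encode transcription factors of the myeloid lineage, were followed through RNA sequencing of a mouse model of juvenile myelomonocytic leukemia (JMML). These 10 genes were found by their Ensembl identifiers among the 45706 genes of the count tables, and all 10 passed the filter on low counts that left 19555 genes for testing. The rule that chose them names the genes by function. The sequenced RNA came from lineage negative, Sca1 and cKit positive (LSK) cells of the bone marrow (BM), a fraction of hematopoietic stem and progenitor cells, and from CD11b+ myeloid cells isolated from BM and from spleen. Every fraction had 2 libraries of MxCre mice, which carry only a Cre recombinase driven by the interferon-inducible Mx promoter. It also had 2 libraries of Ptpn11D61Y/+ mice, which carry the mutant allele behind a Neo-Stop cassette but no Cre, so that only the normal Ptpn11 allele is expressed. The remaining 3 libraries came from MxCre;Ptpn11D61Y/+ mice that were terminally ill, called stage 3 or S3. Per the methods, all experimental mice, controls included, received poly I:C, which activates the Mx promoter, and this promoter is not restricted to blood cells. The labels of all 21 libraries instead give no treatment. The age of the mice was not given in the sources used here. According to the labels, all 3 fractions were sequenced for S3 animals 540 and 815, LSK cells for animal 768 and both CD11b+ fractions for animal 640. For MxCre and Ptpn11D61Y/+ libraries the labels give a replicate number only, so their spread may in part be technical.

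PU.1, the product of Spi1, opens the myeloid program, and it acts with RUNX1 and C/EBPα as stem and progenitor cells commit to granulocytes and monocytes. C/EBPε and GFI1 then drive neutrophil maturation, C/EBPβ serves granulocyte production under stress and inflammatory gene expression in mature cells, and IRF8 and KLF4 favor monocytes and dendritic cells. GATA2 maintains stem and progenitor cells and is also used by mast cells and basophils, and MYC drives growth and ribosome production in dividing cells.

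The promoters of the 4 genes on which most of the genotype comparisons below turn are shown first, as the 250 bases before the transcription start in RefSeq (build GRCm38.p6), each written 5′ to 3′ on the strand of its gene. In this build, Cebpb (ENSMUSG00000056501) lies on chromosome 2 from 167688915 to 167690418, Irf8 (ENSMUSG00000041515) on chromosome 8 from 120736358 to 120756694, Klf4 (ENSMUSG00000003032) on chromosome 4 from 55527143 to 55532466 and Runx1 (ENSMUSG00000022952) on chromosome 16 from 92601466 to 92826149. Overlap of the windows with annotated exons was not checked. Windows were found for 7 of the 10 genes, and Spi1, Cebpe and Myc are named only. Capitals mark matches, on either strand, to 6 short sequences. The core bound by PU.1 was searched as GAGGAA and that of RUNX factors as TGTGGT. The core of GATA factors was AGATAA, the E-box bound by MYC was CACGTG, the site of C/EBP factors was TTNNGNAA and the TATA box was TATAAA. For Runx1, which has a distal and a proximal promoter, the proximal window is shown.
Cebpb (chr2:167688665-167688914, plus strand): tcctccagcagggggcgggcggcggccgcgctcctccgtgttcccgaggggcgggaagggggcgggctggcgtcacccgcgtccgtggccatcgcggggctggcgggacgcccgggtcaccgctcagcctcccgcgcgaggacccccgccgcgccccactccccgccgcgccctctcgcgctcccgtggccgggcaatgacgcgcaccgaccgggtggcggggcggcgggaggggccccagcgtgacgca
Irf8 (chr8:120736108-120736357, plus strand): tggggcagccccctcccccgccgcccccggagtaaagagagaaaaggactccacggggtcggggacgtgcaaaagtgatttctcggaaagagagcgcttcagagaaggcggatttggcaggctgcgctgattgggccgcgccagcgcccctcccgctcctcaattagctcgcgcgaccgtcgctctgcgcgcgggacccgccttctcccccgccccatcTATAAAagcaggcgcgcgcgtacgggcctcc
Klf4 (chr4:55532476-55532725, minus strand): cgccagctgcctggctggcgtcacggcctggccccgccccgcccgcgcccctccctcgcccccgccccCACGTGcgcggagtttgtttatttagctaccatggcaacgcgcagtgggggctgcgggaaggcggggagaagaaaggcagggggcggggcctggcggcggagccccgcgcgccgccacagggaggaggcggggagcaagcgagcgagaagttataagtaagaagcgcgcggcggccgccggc
Runx1 (chr16:92697330-92697579, minus strand): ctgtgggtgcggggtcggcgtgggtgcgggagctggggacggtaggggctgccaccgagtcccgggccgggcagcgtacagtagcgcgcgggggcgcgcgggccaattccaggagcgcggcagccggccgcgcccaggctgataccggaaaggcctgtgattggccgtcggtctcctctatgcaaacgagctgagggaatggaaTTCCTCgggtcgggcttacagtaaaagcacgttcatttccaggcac

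The Cebpb window held none of these sequences and was the richest of the 4 in G and C, at 81.6%, against a median of 52.4% over 32851 windows of this length. Irf8 had a TATA box whose first base lies at position -31 from the start, a sequence found in 12.4% of all windows. Klf4 had an E-box at position -182, found in 6.02% of windows, and the proximal Runx1 promoter had a PU.1 core at position -46, found in 23.3%. Among the windows not shown, Cebpa had a TATA box at position -30 and the distal Runx1 start an E-box at -71. The C/EBP sequence stood at position -143 for Gfi1 and at -118 for the second Gata2 start, and 36.8% of windows hold it. A match is a description of these letters and not a measured binding site.

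Total counts per library ran from 34992610 to 104509425. Levels below are log2 CPM, CPM being counts relative to the library total after scaling by TMM factors, and differences are log2 fold changes with their standard error (SE). CD11b transcripts (Itgam) reached a median level of 6.12 in LSK cells, 9.37 in the CD11b+ fraction of BM and 8.19 in that of spleen, and the highest LSK library, at 6.84, lay below every CD11b+ library. Kit, which defines LSK cells, showed the opposite order, with medians of 8.75, 4.37 and 5.17. In both respects the fractions matched their labels. Erythroid transcripts, however, were abundant in BM CD11b+ libraries, where 11 erythroid markers, led by globins, summed to between 14878 and 224489 CPM.

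Some libraries stood apart. In 3 CD11b+ libraries fewer genes were detected than in any other, namely the first MxCre libraries of BM (14885 genes) and of spleen (14641) and the BM library of S3 animal 815 (14761). Among well-expressed genes, whose median over the cell type reached 2 CPM, 190 of 10714, 102 of 10931 and 59 of 10714 had 0 counts in these libraries. Where leaving them out changed a call of the 10 genes, both values are given. The MxCre groups of both CD11b+ fractions then hold 1 library each, which is assumed to vary like the other groups. Sex-linked transcripts did not follow the shared number for S3 animal 540, MxCre replicate 2 and Ptpn11D61Y/+ replicate 1. The LSK library of S3 animal 540 had 1 count of Xist, transcribed in females, and 15172 counts of 4 Y-linked genes, whereas the BM library of the same animal had 2780 and 958 and the spleen library 712 and 4225. BM MxCre replicate 2 also had both, at 2834 and 1900. Spleen Ptpn11D61Y/+ replicate 1 had 4753 counts of Xist and 0 of the Y-linked genes, whereas the LSK and BM libraries of that number had 17 and 1 of Xist and 21885 and 6602 of the Y-linked genes. The transcripts agreed across fractions for S3 animals 815 and 640, MxCre replicate 1 and Ptpn11D61Y/+ replicate 2. Whether same-numbered libraries come from 1 animal is uncertain where they disagreed, and agreement in sex alone does not settle it.

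Ptpn11 itself, which encodes the mutated phosphatase SHP2, had levels of 6.79 and 6.86 in MxCre, 6.002 and 5.92 in Ptpn11D61Y/+ and 7.26, 7.13 and 7.25 in S3 LSK libraries. The 3 labels did not overlap there, with Ptpn11D61Y/+ lowest and S3 highest. In spleen CD11b+ cells it was at 3.87 and 5.26 in MxCre, 5.96 and 5.14 in Ptpn11D61Y/+ and 6.52, 5.90 and 7.13 in S3 (animals 540, 815 and 640). The Ptpn11D61Y/+ libraries were thus not the lowest in spleen, and S3 was 1.88 above MxCre (SE 0.565, adjusted p = 0.0665).

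**Figure D1:**
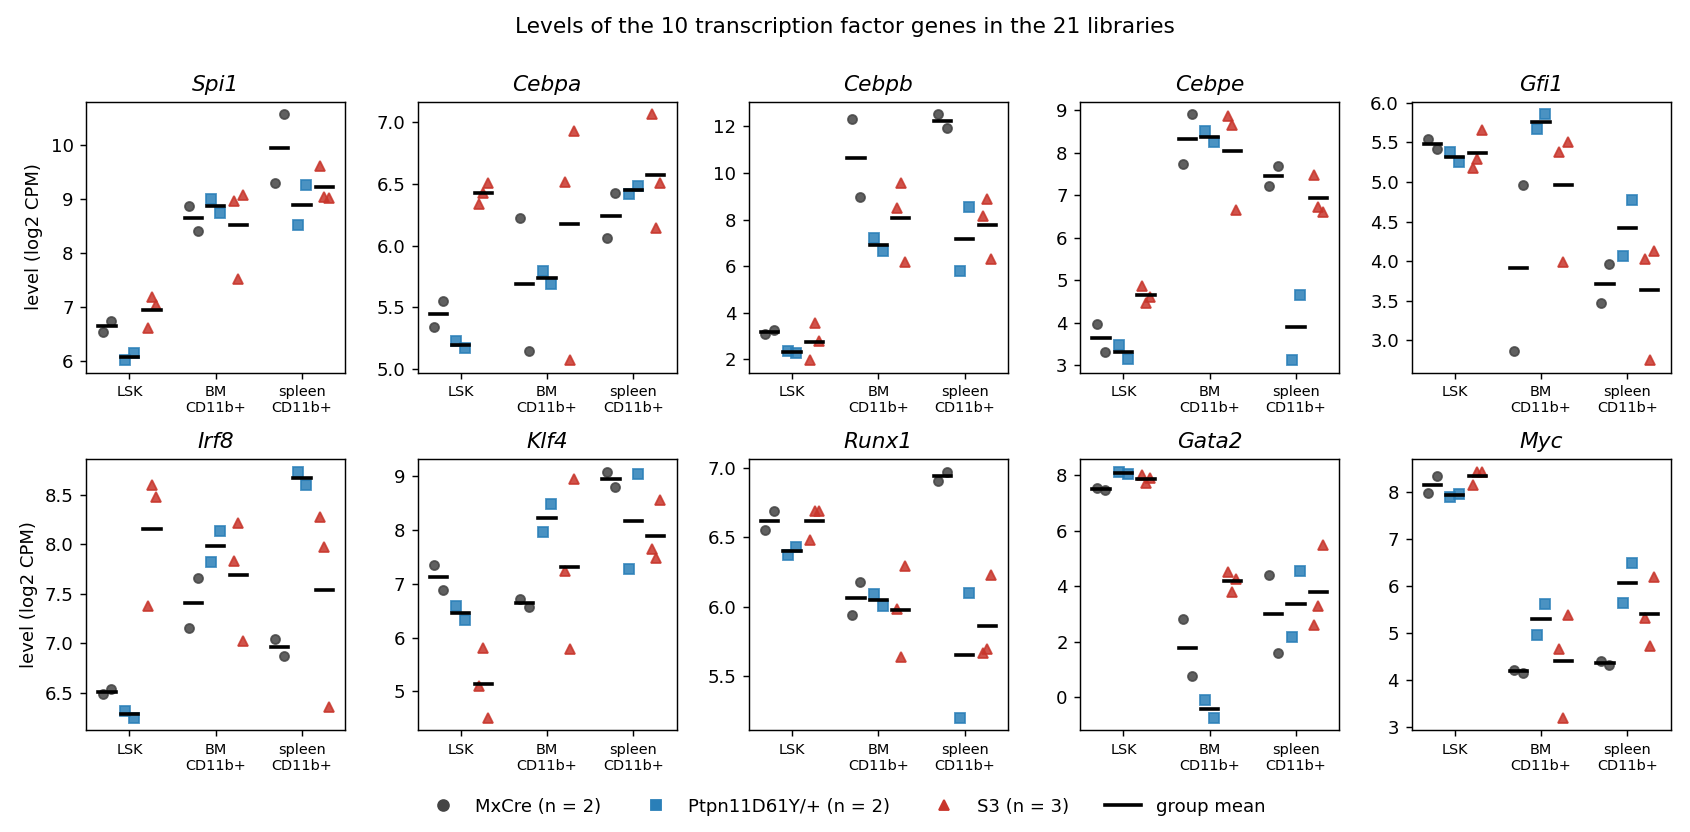
Levels (log2 CPM, vertical axis with its own range per gene) of the 10 genes in each of the 21 libraries, by cell type on the horizontal axis, with circles for MxCre (n = 2), squares for Ptpn11D61Y/+ (n = 2), triangles for S3 (n = 3) and a bar at the group mean. Gata2 and Myc are highest in LSK cells, Spi1 and Cebpb are lowest there, and Cebpb is spread over more than 6 log2 units among CD11b+ libraries.

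The first question was how the 10 factors are distributed over the 3 cell types. Between BM CD11b+ and LSK cells, averaged over the 3 genotype labels, 8 of the 10 genes passed an adjusted p under 0.05, 5 higher and 3 lower in CD11b+ cells. This share has to be read against 58.4% of all genes tested, 26.8% higher and 31.6% lower. Between spleen CD11b+ and LSK cells 9 passed, 6 higher and 3 lower, against 59.9%, 28.3% higher and 31.6% lower. Both comparisons share the LSK libraries. The median over the 10 genes was 0.49 and 0.76, where the median over all genes was -0.17 and -0.14. In these bulk samples, fewer cells of a type and less RNA per cell cannot be told apart. The libraries themselves differed in composition, and scaling by library size alone moved the median of all genes to -0.99 and -0.90. Under that scaling 3 genes were higher and 4 lower in BM, and 4 were higher and 4 lower in spleen.

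Of the early factors, Spi1 had its lowest level, median and highest level at 6.02, 6.61 and 7.19 in LSK cells. In BM CD11b+ cells these were 7.53, 8.88 and 9.09, and in spleen CD11b+ cells 8.53, 9.26 and 10.58. Every CD11b+ library thus lay above every LSK library, as for 11.6% of genes in BM and 12.2% in spleen. The difference was 2.18 (SE 0.277, adjusted p = 1.17e-05) in BM and 2.86 (SE 0.286, adjusted p = 1.02e-06) in spleen. Of 10 PU.1 target genes, 9 rose in BM and 10 in spleen, against 26.8% and 28.3% of all genes. Among them was Cybb, an oxidase subunit, at 3.85 and 3.47. The 10 targets include Itgam, the gene of CD11b, by which these fractions were isolated, so a rise of Itgam is given by the isolation. The second early factor, Cebpa, ranged from 5.17 over a median of 5.55 to 6.51 in LSK, from 5.07 over 5.79 to 6.93 in BM and from 6.06 over 6.42 to 7.07 in spleen. The fractions overlapped, the BM difference was 0.27 (SE 0.252, adjusted p = 0.366), and the spleen difference of 0.75 (adjusted p = 0.0178) was -0.01 with library size alone. Runx1 had the closest medians of the 10, at 6.55, 6.003 and 6.10. All BM libraries, with a highest level of 6.29, lay below all LSK libraries, with a lowest of 6.37, as for 19.9% of genes, and the difference was -0.51 (adjusted p = 0.0175; -0.44 and 0.0508 without the 3 libraries with few genes). In spleen the labels lay on different sides of the LSK range. Both MxCre libraries, at 6.90 and 6.97, lay above the highest LSK library, at 6.69. All Ptpn11D61Y/+ and S3 libraries, from 5.20 to 6.22, lay below the lowest LSK library. The interaction of S3 against MxCre, given below, did not pass. The spleen difference averaged over labels, -0.37 (adjusted p = 0.0738), passed in a fit blocked by library number (-0.43, adjusted p = 0.0313). It also passed with RLE factors, library size alone, limma-voom and DESeq2, but not without a filter or with the compared groups alone.

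Among the granulocyte factors, Cebpe ranged from 3.15 over 3.98 to 4.87 in LSK, from 6.65 over 8.51 to 8.92 in BM and from 3.12 over 6.73 to 7.68 in spleen. The rise from LSK cells was 4.51 (SE 0.388, adjusted p = 2.66e-07) in BM and 2.30 (SE 0.348, adjusted p = 5.25e-05) in spleen. By label the spleen rise was 3.79 (adjusted p = 0.000767) in MxCre, 0.77 (adjusted p = 0.384) in Ptpn11D61Y/+ and 2.34 (adjusted p = 0.00436) in S3. Spleen was at -2.21 against BM (adjusted p = 0.00119). By label this difference from BM was -0.98 (adjusted p = 0.396) in MxCre, -4.31 (adjusted p = 0.0108) in Ptpn11D61Y/+ and -1.34 (adjusted p = 0.366) in S3. All 8 granule genes that C/EBPε activates, such as lactoferrin (Ltf), rose from LSK cells to both fractions, against 26.8% and 28.3% of all genes. Their medians were 7.30 and 5.53, against -0.17 and -0.14 over all genes. Of the 8, 7 were lower in spleen than in BM, against 7.40% of all genes. Gfi1 had medians of 5.37, 5.38 and 4.02. The spleen libraries, up to 4.77, all lay below the LSK libraries, from 5.17 up, as for 18.3% of genes, and the difference was -1.41 (adjusted p = 0.00166), whereas BM libraries ran from 2.87 to 5.86 on both sides of LSK. A430072P03Rik on the other strand shares 101 exon bases with Gfi1 and reached 59.9% of its count in 1 library, with a median of 4.66%, so low Gfi1 levels are uncertain if strand was not used. Cebpb covered the widest range, from 1.96 to 3.56 in LSK, from 6.20 to 12.33 in BM and from 5.79 to 12.53 in spleen. The lowest CD11b+ library was more than 2 log2 units above the highest LSK library, and the differences were 6.22 (SE 0.747, adjusted p = 6.67e-06) and 6.58 (SE 0.761, adjusted p = 4.16e-06). Cebpb shares 312 exon bases with Tmem189 on the other strand, and whether the counting used strand was not given in the sources used here. The methods name a stranded library kit, and the labels give a kit name that does not say so. Tmem189 had a median of 2481 counts against 914 of Cebpb in LSK, so the low LSK level is uncertain. In spleen, where Tmem189 had at least 3263 counts, the lowest Cebpb counts, 3396 in Ptpn11D61Y/+ replicate 1 and 6761 in S3 animal 640, are uncertain as well. In BM, Tmem189 had 2424 to 8242 counts against a lowest Cebpb count of 5414, so low Cebpb levels there are uncertain too. Over all libraries Tmem189 had a median of 56.0% of the Cebpb count.

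Among the monocyte and dendritic cell factors, Irf8 had medians of 6.54, 7.82 and 7.97 and overlapped between all fractions, with differences of 0.71 (adjusted p = 0.0398) in BM and 0.78 (adjusted p = 0.0264) in spleen. Scaling by library size alone gave -0.17 and 0.00, and without the 3 libraries with few genes the adjusted p was 0.081 and 0.0535, so the direction of Irf8 between fractions was not settled by these data. By label the BM difference was 0.92 in MxCre, 1.70 in Ptpn11D61Y/+ and -0.48 in S3, and no interaction between these labels passed. Against 26.8% and 28.3% of all genes, all 8 genes linked to IRF8 in monocytes and dendritic cells, among them Ctss (cathepsin S) and Ccr2, a monocyte chemokine receptor, rose from LSK cells to both fractions. These 8 include Klf4, itself a gene followed here. Klf4 had medians of 6.33, 7.23 and 8.54 and differences of 1.30 (adjusted p = 0.0124) and 2.16 (adjusted p = 0.000449). The former was 0.53 (adjusted p = 0.327) with library size alone. By label it was -0.49 (adjusted p = 0.611) in MxCre, 1.79 (adjusted p = 0.107) in Ptpn11D61Y/+ and 2.62 (adjusted p = 0.00794) in S3. Of 6 genes of patrolling monocytes linked to KLF4, 4 rose in BM and 6 in spleen, against 26.8% and 28.3% of all genes. Treml4 and Nr4a1 rose by 5.02 and 3.65 in spleen.

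Gata2 and Myc ran the other way. Gata2 lay between 7.45 and 8.13 in all LSK libraries, with a median of 7.88, from -0.75 over 2.80 to 4.50 in BM and from 1.59 over 3.27 to 5.49 in spleen. No CD11b+ library reached the LSK range, and the differences were -5.85 (SE 0.638, adjusted p = 2.59e-06) and -3.90 (SE 0.572, adjusted p = 3.91e-05). Spleen was 1.95 above BM (adjusted p = 0.0226), which was lost without the 3 libraries (1.68, adjusted p = 0.0525) and with the block (1.64, adjusted p = 0.05). Of 9 genes linked to GATA2, 5 fell in BM and 7 in spleen, where 31.6% of all genes fell in each, with Cpa3, a mast cell protease, at -5.42 and -4.49, while Hdc, the histamine enzyme also found in neutrophils, rose by 3.32 and 3.38. The 9 include Kit, by which LSK cells were sorted, so a fall of Kit is given by the sort. Gata1, an erythroid factor, rose by 1.99 in BM, where erythroid markers were abundant. Myc had medians of 8.14, 4.65 and 5.32. The lowest LSK library, at 7.89, was above the highest CD11b+ library, at 6.48, and the differences were -3.42 (SE 0.325, adjusted p = 6.94e-07) and -2.80 (SE 0.315, adjusted p = 3.18e-06). Of 15 MYC targets, 12 fell in BM and 11 in spleen, against 31.6% of all genes in each, with list medians of -1.71 and -1.42 against -0.17 and -0.14 over all genes. Cad, a pyrimidine synthesis enzyme, fell by 3.33 and 3.20, and Odc1, of polyamine synthesis, rose by 1.27 in BM.

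Directly between spleen and BM CD11b+ cells, 3 of the 10 genes passed, 1 higher and 2 lower in spleen, against 14.0% of all genes, 6.56% higher and 7.40% lower. These were Cebpe, Gata2 and Gfi1, the latter at -1.06 (SE 0.323, adjusted p = 0.0383), a call that scaling by library size ended (adjusted p = 0.0867). Gfi1 and Gata2 were both lost with limma-voom and with the compared groups alone. The Gfi1 call was also lost without any single Ptpn11D61Y/+ library of these fractions, BM MxCre replicate 2 or either spleen MxCre library. It did not outlast the loss of the BM library of S3 animal 540 or the spleen library of animal 815 either. Without the 3 libraries with few genes, Spi1 (0.82, adjusted p = 0.015) and Cebpa (0.62, adjusted p = 0.0273) passed as well, both higher in spleen. None of the 10 separated all 7 spleen from all 7 BM libraries, where 0.414% of all genes lay above and 0.245% below. Per gene length, Myc was the most abundant of the 10 in LSK cells, at a median of 104 CPM per kilobase of exon, ahead of Gata2 at 43.6 and Spi1 at 36.3. Cebpe led in BM at 294, followed by Cebpb at 238 and Spi1 at 175, and Cebpb led in spleen at 248, followed by Spi1 at 228 and Klf4 at 122. These orders of medians over all labels did not hold within each label. As label means, Cebpb was at 1883 and Cebpe at 281 CPM per kilobase in BM of MxCre, and Cebpb at 82.0, below Spi1 at 175, in BM of Ptpn11D61Y/+. The MxCre mean of Cebpb rested on replicate 1, at 3432. In replicate 2 Cebpb was at 334, below Cebpe at 390. In spleen Cebpb exceeded Spi1 in MxCre, at 3281 against 402, but lay below it in Ptpn11D61Y/+, at 142 against 182, and in S3, at 185 against 226. The last 2 orders did not hold in every library. Cebpb was above Spi1 in Ptpn11D61Y/+ replicate 2 (248 against 228) and S3 animal 815 (314 against 195). Gata2 was the least abundant in both CD11b+ fractions, at 1.29 and 1.78, and Cebpb in LSK cells, at 4.54. Within single labels, BM differed from LSK cells for 5 genes in MxCre, 6 in Ptpn11D61Y/+ and 6 in S3, against 36.9%, 19.7% and 27.1% of all genes. Spleen differed from LSK cells for 6, 5 and 8 genes, against 41.6%, 18.1% and 27.4%. Spleen differed from BM for 2 genes in Ptpn11D61Y/+, Cebpe and Gata2 (4.24, adjusted p = 0.042), against 3.69% of all genes. For MxCre and S3 edgeR called 0 of the 10 there, against 0.915% and 0.0563%, with 3 and 2 at an unadjusted p under 0.05 (19.8% and 9.77% of all genes), and no other tool was run within labels. In S3, where animals 540, 815 and 640 gave both fractions, Gfi1 was at 5.38, 3.99 and 5.51 in BM and at 4.02, 2.75 and 4.13 in spleen, lower in spleen in each animal. With the animal as a block, a fit chosen after seeing the data, 0 of the 10 passed too, Gfi1 at -1.33 (adjusted p = 0.175) and Myc at 0.995 (adjusted p = 0.122).

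**Figure D2:**
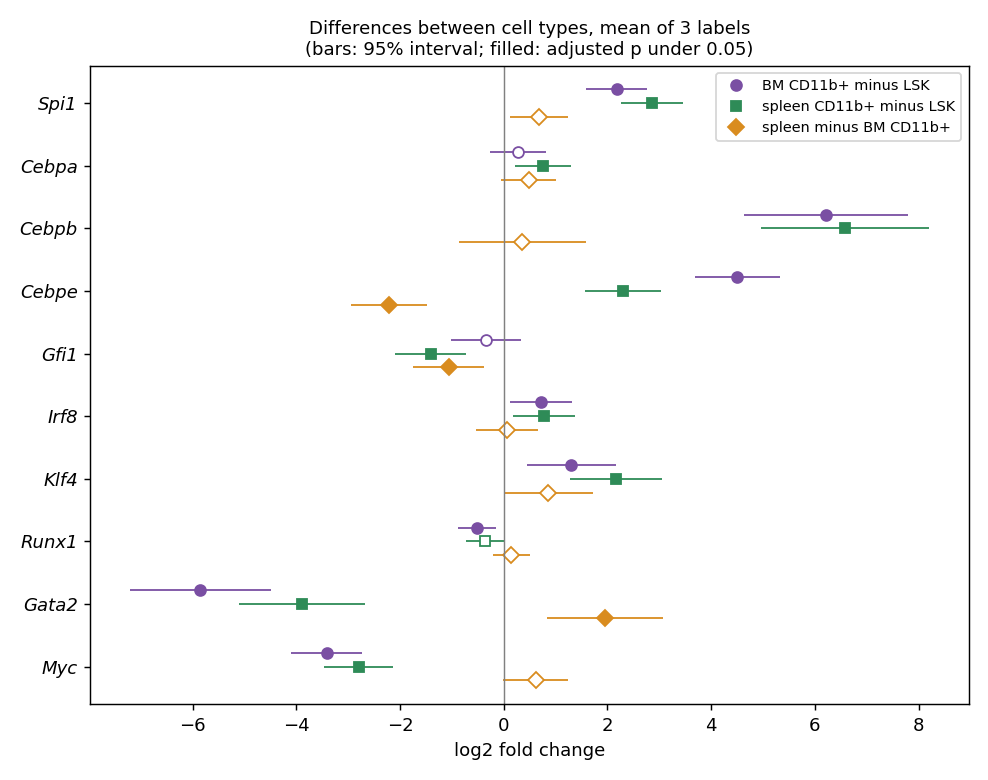
Log2 fold changes between cell types (horizontal axis) for the 10 genes, averaged over the 3 genotype labels, with bars for the 95% interval and filled symbols for an adjusted p under 0.05. Cebpb, Cebpe and Spi1 lie to the right of 0 and Gata2 and Myc to the left for both CD11b+ fractions, while Irf8 in BM and Cebpa in spleen turn to -0.17 and -0.01 under scaling by library size alone.

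The second question was whether the factors differ between S3 and the controls in the same cell type. S3 was compared with MxCre and with Ptpn11D61Y/+, so these comparisons share the S3 libraries, and MxCre also serves as the base of Ptpn11D61Y/+. In LSK cells, edgeR called none of the 10 genes between S3 and MxCre, against 0.0307% of all genes, with 3 at an unadjusted p under 0.05 (3.97% of all genes). DESeq2 and limma-voom called 0 of the 10, and 129 and 21 of all 19555 genes. Between S3 and Ptpn11D61Y/+ edgeR called 0 as well, against 0.0972%, with 3 at an unadjusted p under 0.05 (5.74% of all genes). There DESeq2 called Irf8 and limma-voom 0 of the 10, where they called 248 and 173 of all genes. Between the control labels edgeR called 0, against 0.0614%, also without adjustment (1.69% of all genes). DESeq2 and limma-voom called 0 of the 10 there too, and 103 and 5 of all genes. A fit of the compared LSK libraries alone, without the more variable CD11b+ libraries, called 4, 4 and 3 of the 10 genes where it called 4700 of 17561, 5223 of 17911 and 2508 of 17688 genes in all. Of the 10, it called Cebpa, Cebpe, Klf4 and Gata2 for S3 against MxCre, Spi1, Cebpa, Cebpe and Irf8 for S3 against Ptpn11D61Y/+, and Spi1, Cebpb and Gata2 between the control labels.

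The LSK levels of S3 separated from all 4 controls for 4 of the 10 genes, 3 above and 1 below. As 22.4% of all genes lay above and 18.7% below, this is a description and not a result about these genes. The 8 markers of LSK cells themselves, led by Cd34 or Kit and none at 0, summed to 1642 and 1717 CPM in MxCre, 1551 and 1698 in Ptpn11D61Y/+ and 1235, 1144 and 1052 in S3, lower in every S3 library. Their part in the levels below was not tested. Irf8 was at 6.48 and 6.54 in MxCre, 6.32 and 6.25 in Ptpn11D61Y/+ and 7.38, 8.60 and 8.48 in S3 animals 540, 815 and 768. Every S3 library exceeded every control, with animal 540 nearest to them, and the difference from MxCre was 1.74 (SE 0.502, adjusted p = 0.654) and from Ptpn11D61Y/+ 1.97 (SE 0.508, adjusted p = 0.289). The 4 control LSK libraries and that of animal 540 had at most 17 counts of Xist and at least 12794 of the Y-linked genes. Those of animals 815 and 768 had 39460 and 88850 of Xist and 0 of the Y-linked genes. The part of sex in the LSK levels was not tested. Cebpa was at 5.34 and 5.55 in MxCre, 5.22 and 5.17 in Ptpn11D61Y/+ and 6.33, 6.43 and 6.51 in S3. Here the S3 libraries lay close together and above all controls, by 0.97 (SE 0.435, adjusted p = 1) and 1.23 (adjusted p = 0.632). Cebpe was at 3.98 and 3.31 in MxCre, 3.48 and 3.15 in Ptpn11D61Y/+ and 4.87, 4.46 and 4.61 in S3, again without overlap, with differences of 0.97 (adjusted p = 1) and 1.33 (adjusted p = 0.805). Klf4 was the one gene below all controls, at 7.34 and 6.89 in MxCre, 6.58 and 6.33 in Ptpn11D61Y/+ and 5.10, 5.81 and 4.51 in S3. Its difference was -1.90 (SE 0.667, adjusted p = 0.919) from MxCre and -1.22 from Ptpn11D61Y/+.

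For Spi1, Cebpb, Gfi1, Runx1 and Myc the S3 range overlapped with a control label in LSK cells. Gata2 was at 7.52 and 7.45 in MxCre, 8.13 and 8.03 in Ptpn11D61Y/+ and 7.998, 7.709 and 7.878 in S3, so that S3 lay between the control labels without overlap. Runx1 ran from 6.37 to 6.69 and Gfi1 from 5.17 to 5.65 over all 7 libraries, and Myc from 7.89 to 8.42. The genes linked to these factors gave few calls. Of the 8 genes linked to IRF8, Naaa, a lysosomal amidase, was called higher in S3 than in MxCre (2.77, adjusted p = 0.0356), where 0.0307% of all genes were called, with a list median of 1.28 against 0.01 over all genes. Of the 8 granule genes, Mmp8 and Mmp9, neutrophil proteases, were called lower, at -5.33 and -5.06. Between Ptpn11D61Y/+ and MxCre, 5 of the 8 granule genes were lower, against 0.0614% of all genes called in either direction, with Mmp9 at -8.02 and Ltf at -7.41. Mature neutrophil markers moved with them. None of the 8 was at 0, with 3 above 1 CPM in each Ptpn11D61Y/+ library and 6 to 8 in the others. Led by S100a9, they summed to 1403 and 1196 CPM in MxCre, 184 and 139 in Ptpn11D61Y/+ and 463, 792 and 589 in S3. The 8 markers of immature neutrophils, led by Mpo, summed to 3421 and 2792, 2763 and 2701, and 5069, 4993 and 6370 CPM. Monocyte markers, led by Ly6c2 or Csf1r, summed to 367 and 293, 247 and 218, and 308, 871 and 880 CPM, with animal 540 lowest in S3, as for Irf8. B cell markers in LSK summed to 10977 and 5187 CPM in MxCre, 22819 and 20751 in Ptpn11D61Y/+ and 10683, 8954 and 3290 in S3. Nearly all of this was Ighm, at 10836 and 5091, 22747 and 20644, and 10609, 8880 and 3252 CPM. The sums thus say little about the other B cell markers. Markers of mast cells and basophils, led by Prss34 in S3 and by Gata2 itself in the controls, summed to 1480, 897 and 1040 CPM in S3 and to between 246 and 530 CPM in the controls, while Gata2 had its highest levels, 8.13 and 8.03, in Ptpn11D61Y/+. The 6 megakaryocyte markers, led by Itga2b and none at 0, were lowest in MxCre as Gata2 was, and summed to 186 and 176 CPM there, 486 and 375 in Ptpn11D61Y/+ and 439, 313 and 415 in S3. The part of other cells in these levels was not tested.

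In BM CD11b+ cells no gene of the 19555, and hence 0 of the 10, passed between S3 and MxCre, S3 and Ptpn11D61Y/+ or Ptpn11D61Y/+ and MxCre in edgeR (0% of all genes). At an unadjusted p under 0.05 there were 2, 1 and 4 of the 10, beside 15.5%, 8.22% and 22.6% of all genes. DESeq2 called 0, 1 and 1 of the 10, where it called 933, 247 and 1840 of all 19555 genes. With limma-voom it was 0 in each, where 23, 3 and 7 of all genes were called. Gata2, the progenitor factor, was the one gene of the 10 whose S3 libraries separated from all controls. Its counts were 186 and 63 in MxCre, 48 and 31 in Ptpn11D61Y/+ and 1001, 361 and 1659 in S3 animals 540, 815 and 640. As levels these were 2.80 and 0.76, -0.10 and -0.75, and 4.50, 3.78 and 4.26. All S3 libraries lay above all 4 controls, as for 1.78% of genes, no member lay below them, as 1.70% of genes did, and the Ptpn11D61Y/+ libraries were lowest. The difference was 2.11 (SE 0.924, adjusted p = 0.293) from MxCre and 4.65 (SE 1.07, adjusted p = 0.422) from Ptpn11D61Y/+, and DESeq2 called the latter. Without the 3 libraries with few genes they were 3.66 (adjusted p = 0.185) and 4.82 (adjusted p = 0.0903). Markers of mast cells and basophils, of which Gata2 is one of 7, passed 1 CPM for 4 and 4 genes in MxCre, 3 and 1 in Ptpn11D61Y/+ and 7, 5 and 7 in S3. Their sums, dominated by Hdc, were 756 and 336, 332 and 329, and 1010, 573 and 248 CPM. Markers of LSK cells summed to 77 and 81, 76 and 65, and 89, 305 and 70 CPM. The part of these cells in the Gata2 level was not tested.

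Cebpb in BM was at 12.33 and 8.97 in MxCre, 7.20 and 6.63 in Ptpn11D61Y/+ and 8.48, 9.57 and 6.20 in S3. The first MxCre library stood more than 2 log2 units above all others, and S3 overlapped with both controls. The difference of S3 from MxCre was -2.83 (SE 0.983, adjusted p = 0.232), and -1.21 (adjusted p = 0.547) without the 3 libraries, of which that MxCre library is one. That library also had macrophage markers at a sum of 16036 CPM, against 348 to 2660 CPM in the other BM libraries. Cebpe overlapped between the labels in BM, at 7.73 and 8.92, 8.51 and 8.26, and 8.86, 8.65 and 6.65. Animal 640 was the low one, and in it the mature neutrophil markers summed to 13573 CPM, against 54307 to 77175 CPM in the other 6 BM libraries. Without BM MxCre replicate 2, Cebpb and Gfi1 passed in S3 and in Ptpn11D61Y/+ against MxCre, which then rested on replicate 1 alone.

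In spleen CD11b+ cells 2 of the 10 genes, Cebpb and Runx1, were called between S3 and MxCre, both lower in S3, against 4.19% of all genes and 2.67% that were called lower. The median of the 10 was -0.23, where all genes had 0.32. Cebpb was at 12.53 and 11.94 in MxCre, 5.79 and 8.54 in Ptpn11D61Y/+ and 8.14, 8.88 and 6.32 in S3 animals 540, 815 and 640. Both MxCre libraries were far above all 5 others. In counts these were 233236 and 180820, 3396 and 22695, and 18586, 23523 and 6761. The difference was -4.15 (SE 1.03, 95% interval -6.33 to -1.98, adjusted p = 0.0342) for S3 and -4.53 (SE 1.23, adjusted p = 0.0447) for Ptpn11D61Y/+. Without the 3 libraries it was -3.83 (adjusted p = 0.0342) and -4.20 (adjusted p = 0.0355). Runx1 was at 6.90 and 6.97 in MxCre, 5.20 and 6.10 in Ptpn11D61Y/+ and 5.67, 5.70 and 6.22 in S3. Again both MxCre libraries exceeded the other 5, by a smaller margin, and the difference was -1.05 (SE 0.282, 95% interval -1.65 to -0.46, adjusted p = 0.0466) for S3 and -1.22 (SE 0.318, adjusted p = 0.038) for Ptpn11D61Y/+. The Runx1 call for Ptpn11D61Y/+ was lost with library size alone, without a filter, with the compared groups alone and without either spleen MxCre library. Both calls of S3 against MxCre were lost with MxCre and Ptpn11D61Y/+ as 1 control group, both were lost without the spleen library of MxCre replicate 1 or of S3 animal 540, and that of Runx1 was lost with library size alone (-0.58, adjusted p = 0.268) and without the 3 libraries (-1.08, adjusted p = 0.0599).

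Between Ptpn11D61Y/+ and MxCre in spleen 3 of the 10 genes were called, all lower, against 5.11% of all genes and 3.02% called lower. The third was Cebpe, at 7.21 and 7.68 in MxCre, 3.12 and 4.66 in Ptpn11D61Y/+ and 7.47, 6.73 and 6.60 in S3. Here S3 lay near MxCre and the Ptpn11D61Y/+ libraries stood alone at the bottom. Leaving out Ptpn11D61Y/+ replicate 1, whose sex-linked transcripts differ from those of its number in LSK and BM, ended all 3 calls, and that of Cebpb did not outlast the loss of any of the 4 libraries. The Cebpe difference was -3.38 (SE 0.666, adjusted p = 0.0145) for Ptpn11D61Y/+ against MxCre and 2.90 (SE 0.627, adjusted p = 0.128) for S3 against Ptpn11D61Y/+. In the latter comparison edgeR called 0 of the 10, against 0.00511% of all genes, with 1 at an unadjusted p under 0.05 (8.88% of all genes). DESeq2 called Cebpe alone of the 10 and limma-voom 0, where they called 387 and 12 of all 19555 genes. Of the 8 granule genes, 5 were lower in Ptpn11D61Y/+ than in MxCre, such as Camp at -4.30 and Ltf at -3.69, against 3.02% of all genes. Their list median was -3.27, against 0.20 over all genes. The 8 mature neutrophil markers, led by S100a9 and all detected, summed to 43084 and 98376 CPM in MxCre, 2370 and 5771 in Ptpn11D61Y/+ and 56837, 25028 and 20519 in S3. B cell markers, led by Ighm, ran the other way, at 2458 and 506, 20671 and 7267, and 3914, 2266 and 769 CPM. The part of the cell mixture in the Cebpe and Cebpb levels was not tested.

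**Figure D3:**
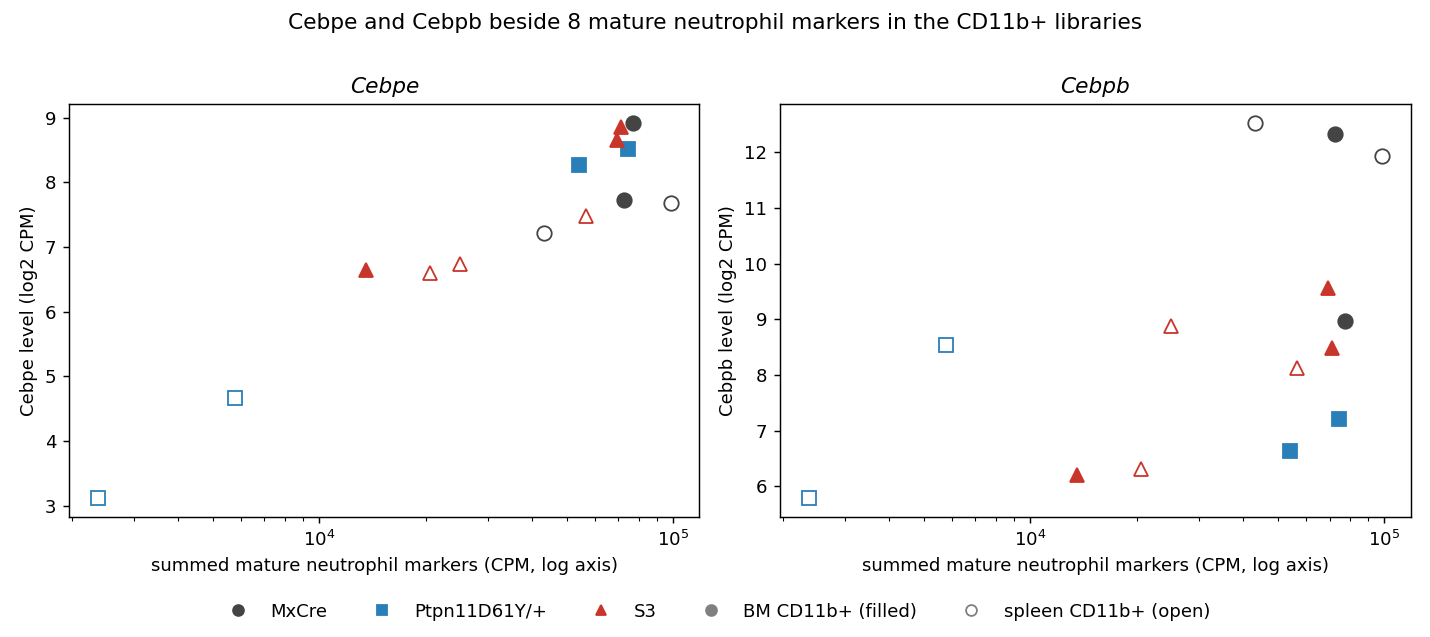
Levels (log2 CPM) of Cebpe, left, and Cebpb, right, in the 14 CD11b+ libraries against the summed CPM of 8 mature neutrophil markers (log axis), with colors and shapes for the labels and filled symbols for BM, open ones for spleen. Cebpe is lowest in the 2 spleen Ptpn11D61Y/+ libraries, which have the smallest marker sums, 2370 and 5771 CPM, whereas Cebpb ranges from 6.63 to 12.33 among BM libraries with sums of 54307 CPM or more.

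The remaining genes did not pass in spleen in the edgeR fit over all libraries. Irf8 was at 7.05 and 6.87 in MxCre, 8.73 and 8.59 in Ptpn11D61Y/+ and 8.28, 7.97 and 6.36 in S3, so that animal 640 fell below MxCre and the other S3 libraries above it. The 8 dendritic cell markers, none at 0, summed to 2950 and 1505 CPM in MxCre, 3810 and 6285 in Ptpn11D61Y/+ and 3936, 6880 and 825 in S3. Animal 640 was again lowest. Most of each sum was H2-Aa, at 2524 and 1266, 3535 and 5903, and 3610, 5848 and 778 CPM. The sums thus say little about the other dendritic cell markers. B cell markers, like Irf8, were highest in the Ptpn11D61Y/+ libraries, at 20671 and 7267 CPM. The part of either cell type in the Irf8 levels was not tested. The difference of Ptpn11D61Y/+ from MxCre was 1.71 (adjusted p = 0.0702), and that of S3 from MxCre was 0.78. Myc was at 4.41 and 4.32, 5.62 and 6.48, and 5.32, 4.72 and 6.18, with both MxCre libraries lowest, and S3 lay 1.17 (SE 0.51, adjusted p = 0.171) and Ptpn11D61Y/+ 1.75 (adjusted p = 0.0731) above them. For Ptpn11D61Y/+ against MxCre, Irf8 and Myc both passed with DESeq2, which called 3329 of 19555 genes there. They also passed with library size alone (2.32 and 2.34, adjusted p = 0.0206 and adjusted p = 0.0467) and in fits of the control libraries alone, with or without the replicate block. Of the 15 MYC targets, Cad and Srm, a spermidine synthase, were called higher in S3 than in MxCre, by 2.69 and 1.05. In that comparison 296 of 19555 genes were called higher. The list median was 0.97, against 0.32 over all genes. Spi1 had differences of -0.83 (adjusted p = 0.243) for S3 and -1.14 (adjusted p = 0.166) for Ptpn11D61Y/+. Without the 3 libraries with few genes both passed, at -1.32 (adjusted p = 0.0356) and -1.64 (adjusted p = 0.0179). Klf4 had a difference of -0.98 (adjusted p = 0.355) and Cebpa one of 0.37 (adjusted p = 0.605) between S3 and MxCre. None of the 10 had all S3 libraries above or below all 4 controls in spleen, as 3.41% and 2.27% of genes had.

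**Figure D4:**
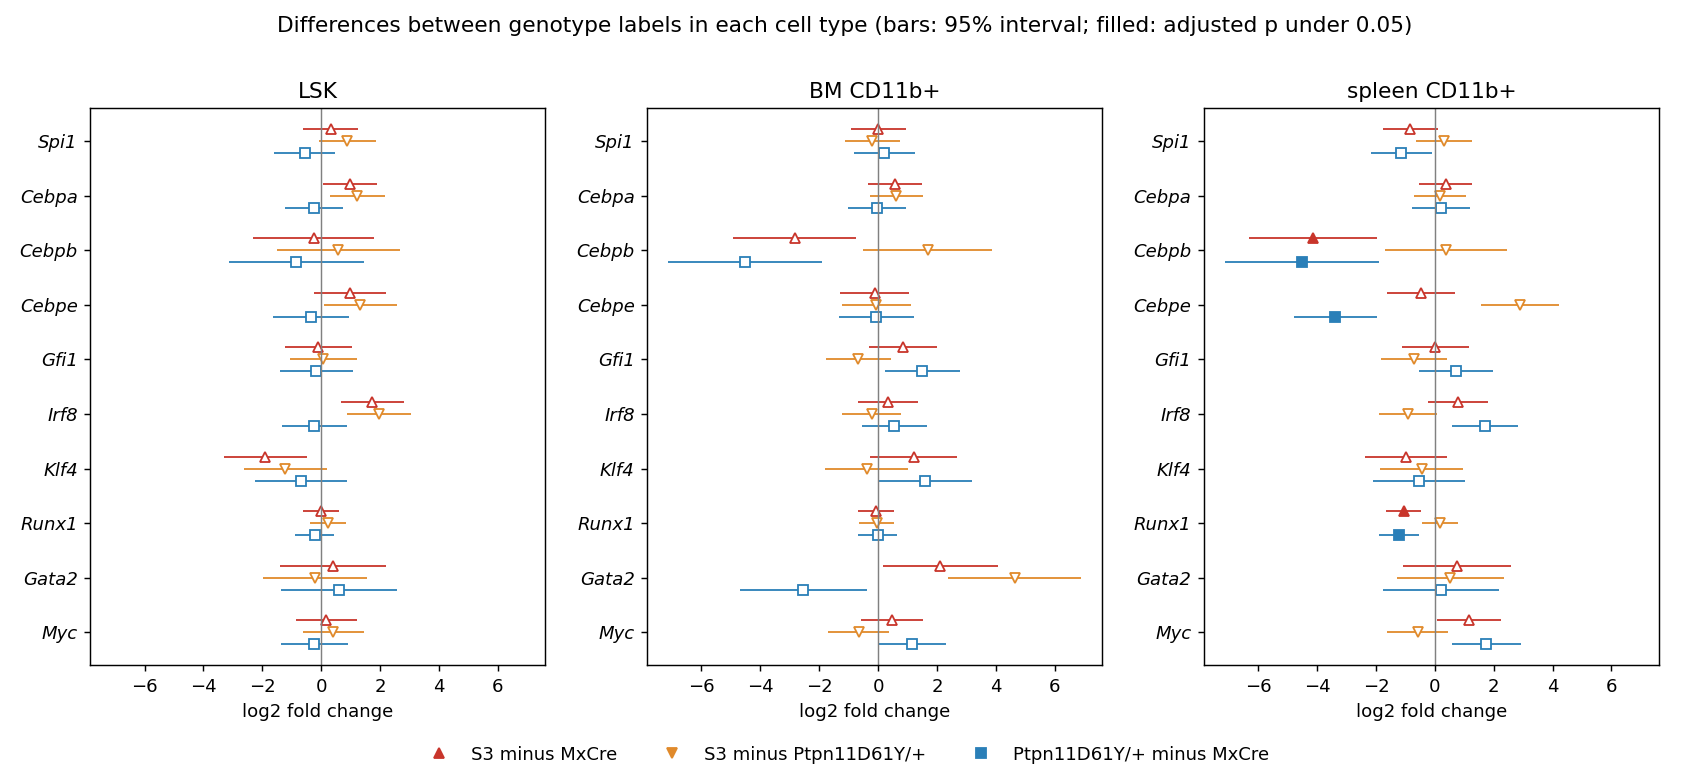
Log2 fold changes between genotype labels (horizontal axis) for the 10 genes in LSK, BM CD11b+ and spleen CD11b+ cells, with bars for the 95% interval and filled symbols for an adjusted p under 0.05. Filled symbols appear in spleen CD11b+ cells, for Cebpb and Runx1 against MxCre (-4.15 and -1.05 for S3) and for Cebpe in Ptpn11D61Y/+ (-3.38), and in no other panel.

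An interaction tested if the effect of S3 over MxCre depended on the cell type. None of the 10 genes passed for BM against LSK, spleen against LSK or spleen against BM in edgeR, against 0%, 0.00511% and 0% of all genes, with 1, 2 and 2 at an unadjusted p under 0.05 (8.12%, 13.4% and 10.7% of all genes). DESeq2 called 0 of the 10 in each, where it called 146, 827 and 514 of all 19555 genes. With limma-voom it was 0 as well, where 4, 63 and 1 of all genes were called. The largest were Klf4, whose change in BM exceeded that in LSK cells by 3.11 (SE 0.976, adjusted p = 0.609), and Cebpb, whose change in spleen was 3.90 lower than in LSK cells (interaction -3.90, adjusted p = 0.286). For Runx1 the interaction of spleen against LSK was -1.05 (adjusted p = 0.302).

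Among 44 other hematopoietic transcription factors, 20 were called higher and 13 lower in BM CD11b+ than in LSK cells, with a median of 0.45, and 18 and 16 in spleen, with a median of -0.19. Over all genes 26.8% were higher and 31.6% lower in BM, with a median of -0.17, and 28.3% and 31.6% in spleen, with a median of -0.14. Those that fell most in BM were Mycn at -6.56, Meis1 at -6.36 and Hoxa9 at -5.71, both of the latter regulators of stem and progenitor cells. Among those that rose were Cebpd, a relative of Cebpb, at 4.18 and the B cell factor Pax5 at 4.14. Of 6 genes that GFI1 represses, Id2 rose by 3.24 in BM and 3.82 in spleen, while Hoxa9 and Meis1 fell. Those named do not stand for the list, which is not tallied here. Between S3 and MxCre, 0 of the 44 were called in LSK or in BM cells by edgeR, with 8 and 7 at an unadjusted p under 0.05 (3.97% and 15.5% of all genes). In spleen Hoxa9 (7.42) and Lmo2 (1.71) were called higher and Klf2 (-2.47) and Mxd1, a MYC antagonist, (-2.43) lower. There 4.19% of all genes were called in either direction and 2.67% lower. Mxd1 was lower in Ptpn11D61Y/+ as well (-3.32), as was Cebpd (-2.84), where 3.02% of all genes were called lower.

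The genes whose levels were most like those of a member were found by Pearson correlation over the 21 libraries among the 8765 named genes whose mean reached 3 log2 CPM. These values describe libraries that share cell types and carry no test. Nadk (0.987) and Tyrobp (0.984), a signaling adaptor of myeloid cells, were most like Spi1. Borcs6 (0.987) was most like Cebpb, and Ltb4r1 (0.984), a leukotriene receptor of neutrophils, most like Cebpe. Ccdc137 (0.989) was most like Myc, Ext2 (0.944) most like Gata2 and Plk2 (0.936) most like Klf4. For Cebpa, Gfi1 and Runx1 the highest values were 0.905 (Nagpa), 0.893 (Maz) and 0.893 (Usp19). Irf8 had the lowest, with 0.849 for the interferon-inducible Ifi209 and then 0.771 for Mrpl36.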

How the data were processed

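The authors trimmed paired-end reads with Trim Galore 0.6.5 and mapped them to mm10 (GRCm38) with STAR 2.5.3a, per the submitters' processing notes, and deposited raw counts per Ensembl gene in 1 table per library. The counting program, its annotation and its use of strand were not given in the sources used here. Symbols were found for 45143 of 45706 identifiers, and positions were read from a GRCm38 annotation (GENCODE).

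The deposited counts were analysed with edgeR 4.0.16 in R 4.3.3. The filter on low counts (filterByExpr, minimum count 10 and minimum total 15 over the 9 combinations of cell type and label) left 19555 genes. These were scaled by TMM and fitted with 1 robust quasi-likelihood model over all 21 libraries (12 residual degrees of freedom), without covariates. P-values are two-sided and were adjusted by Benjamini-Hochberg over all genes tested, with a threshold of 0.05. Levels (log2 CPM) were computed by edgeR, adding a prior count of 2. The total counts behind them ran from 34992610 to 104509425. Alternatives were DESeq2 1.42.0, limma-voom (limma 3.58.1), RLE factors, library size alone, no filter on low counts, the compared groups alone, both control labels as 1 group, the control libraries alone, a replicate block, and leaving out libraries. The procedure was also run on simulated counts with the same spread in all libraries. As the CD11b+ libraries here are more variable, this does not test the shared fit in LSK cells.

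The 10 genes, the lists and the libraries set aside were chosen with earlier results of these data known. Named besides the 10 genes and Ptpn11 are list genes past the threshold, in order of size, and the genes most like each member. Some list genes are not reported here. The MxCre label has 2 libraries in each fraction, although the methods mention 3 mice for each genotype.

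Same-numbered S3 libraries deviated together between BM and spleen, with correlations of 0.108, 0.407 and 0.333 for animals 540, 815 and 640, but hardly between LSK and spleen (0.0865 and 0.0529). The pairing comes from the animal numbers in the labels, which the sex-linked transcripts put in doubt for animal 540. For animals 815 and 640 these transcripts agreed between fractions.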

Additional observations from a re-analysis of the deposited data

Results flagged for a closer look

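For 10 combinations of gene and comparison, all libraries of one label lay above those of the other in one cell type and below them in another. The interaction was then tested in edgeR, a choice made after the values were seen, and none passed an adjusted p of 0.05. For Ptpn11D61Y/+ against MxCre, the change in BM exceeded that in LSK cells by 1.67 for Gfi1 (adjusted p = 0.476), 0.79 for Irf8 (adjusted p = 0.629), 2.28 for Klf4 (adjusted p = 0.474) and 1.38 for Myc (adjusted p = 0.483). For Gata2 the same interaction was -3.13 (adjusted p = 0.474). Between spleen and LSK cells it was 0.89 for Gfi1 (adjusted p = 0.691), 1.94 for Irf8 (adjusted p = 0.336) and 1.99 for Myc (adjusted p = 0.339). For S3 against Ptpn11D61Y/+, Irf8 was higher in S3 in LSK cells and lower in spleen, with an interaction of -2.89 (adjusted p = 0.542). Gata2 was higher in S3 in BM and lower in LSK cells, with an interaction of 4.86 (adjusted p = 0.802). No group was large enough for a test of single outlying libraries.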

How the results depend on the processing

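Of 870 recomputed log2 fold changes of the 10 genes, 758 kept their direction and side of the threshold, 82 lost the call, 28 gained one and 2 turned sign. The last did so with library size alone, where Irf8 was at -0.17 between BM CD11b+ and LSK cells and Cebpa at -0.01 between spleen CD11b+ and LSK cells. The number of the 10 genes called was 3 between spleen and BM, and 1 with the compared groups alone and with limma-voom. For S3 against MxCre in spleen it was 2, and 1 with library size alone, 0 without a filter, 0 with the compared groups alone and 0 with both control labels as 1 group. For Ptpn11D61Y/+ against MxCre in spleen it was 3, and 1 without a filter, 1 with the compared groups alone and 5 with DESeq2. The compared groups alone gave 4, 4 and 3 in LSK cells for S3 against MxCre, S3 against Ptpn11D61Y/+ and Ptpn11D61Y/+ against MxCre, where the reported count was 0. DESeq2 gave 1 for S3 against Ptpn11D61Y/+ in LSK (Irf8), BM (Gata2) and spleen (Cebpe), and 1 for Ptpn11D61Y/+ against MxCre in BM (Cebpb), beside 248, 247, 387 and 1840 of 19555 genes. The cause of these shifts was not tested.

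Leaving out 1 library at a time gave 7 to 8 genes for BM against LSK, 7 to 10 for spleen against LSK, 1 to 5 for spleen against BM, 0 to 1 for S3 against MxCre in spleen, 0 to 2 for Ptpn11D61Y/+ against MxCre in spleen, 0 to 2 in BM for S3 and for Ptpn11D61Y/+ against MxCre, and 0 in all other comparisons. Without the spleen library of MxCre replicate 1 or S3 animal 540, neither Cebpb nor Runx1 passed between S3 and MxCre. Cebpb passed without MxCre replicate 2 or S3 animal 815, and Runx1 without S3 animal 640.

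With RLE factors the split between spleen and LSK was 5 higher and 4 lower, and with library size alone that between spleen and BM 1 higher and 1 lower. Over all genes, calls for S3 against MxCre in spleen ran from 0 to 3369 over the alternatives (819 in the fit reported), and for Ptpn11D61Y/+ against MxCre there from 272 to 3329 (1000). With the replicate block, which uses the pairing by number, 8, 10 and 2 genes were called for BM against LSK, spleen against LSK and spleen against BM. For Ptpn11D61Y/+ against MxCre, whose libraries share only a number (correlations of -0.0406, -0.0306 and -0.00185), the block was fitted on the control libraries alone (18866 genes) and gave 0, 0 and 4 in LSK, BM and spleen, where Irf8 and Myc passed and Cebpb did not. The same libraries without the block, an alternative chosen after seeing the data, gave 0, 1 and 5, and over all genes 33, 1346 and 2120 calls against 17, 798 and 1211 with it. For S3 against either control, no paired analysis was possible because they share no numbers in any cell type. With the S3 animal as a block, an alternative chosen after seeing the data, 7 of all genes were called between spleen and BM in S3, against 11 without it.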
